A study of Mus musculus with 18 samples.

Results

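Gfap, Vim and Nes encode glial fibrillary acidic protein, vimentin and nestin, the intermediate filament proteins of glial cells. Their transcripts were followed in mouse retina after a single injection of a steroid into the vitreous. Probe sets were taken where the platform annotation names 1 of these 3 symbols and no other gene. This gave 9 probe sets, 3 for each gene, among 34945 probe sets that name a single gene and 45101 probe sets in all, and 0 probe sets named a member together with another gene. For each gene the probe set with the largest interquartile range over the 18 arrays stood for the gene where 1 value was needed: 1440142_s_at for Gfap, 1450641_at for Vim and 1449022_at for Nes.

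The series holds 18 retina samples from male C57BL6/J mice, which were 2 months old. Eyes received BSS (the control), dexamethasone (DEX) or triamcinolone (TAA) at day 0, and retinas were collected at day 7 or day 30, with 3 biological replicates in each of the 6 groups. All samples thus shared strain, sex and an injected eye, whether each came from 1 retina of its own animal is not stated in the labels, and the series as analysed here has no uninjected retina. DEX and TAA are synthetic glucocorticoids, and no dose is given in the sources used here, so the drugs cannot be matched for dose. The whole retina was taken, so each value is a mixture of all its cell types.

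Intermediate filaments are rope-like polymers that give a cell mechanical strength. In the retina, vimentin is carried by Müller glia, the radial glia that span the tissue, and GFAP is normally held mainly by the astrocytes of the nerve fibre layer. After injury or stress Müller glia also make GFAP, which is the most widely used sign of retinal gliosis, while nestin is a filament protein of neural progenitors that reactive glia can make again. Vimentin is also found in endothelial cells, pericytes, fibroblasts, microglia and the lens, and nestin in endothelial cells and pericytes. The GFAP gene is switched on through gp130 cytokine receptors and the transcription factor STAT3, together with bone morphogenetic protein, Notch and nuclear factor I inputs.

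The promoters are shown because STAT3 and the glucocorticoid receptor act through known DNA words. Each line holds the 250 bases before the annotated start on the gene's own strand, from RefSeq on GRCm38.p6. Gfap lies on the minus strand with the window at chr11:102897201-102897450, Vim on the plus strand at chr2:13574061-13574310, and Nes on the plus strand at chr3:87970843-87971092. Capitals mark motif matches that are named after the lines.
Gfap promoter: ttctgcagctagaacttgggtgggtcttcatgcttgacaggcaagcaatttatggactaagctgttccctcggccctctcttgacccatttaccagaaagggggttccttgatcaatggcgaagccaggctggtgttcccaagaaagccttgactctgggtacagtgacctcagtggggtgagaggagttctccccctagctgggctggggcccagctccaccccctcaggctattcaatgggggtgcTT
Vim promoter: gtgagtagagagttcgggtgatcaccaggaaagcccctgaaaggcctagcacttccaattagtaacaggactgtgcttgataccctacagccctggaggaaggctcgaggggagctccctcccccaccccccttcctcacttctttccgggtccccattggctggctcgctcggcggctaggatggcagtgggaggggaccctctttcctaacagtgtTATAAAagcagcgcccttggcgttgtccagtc
Nes promoter: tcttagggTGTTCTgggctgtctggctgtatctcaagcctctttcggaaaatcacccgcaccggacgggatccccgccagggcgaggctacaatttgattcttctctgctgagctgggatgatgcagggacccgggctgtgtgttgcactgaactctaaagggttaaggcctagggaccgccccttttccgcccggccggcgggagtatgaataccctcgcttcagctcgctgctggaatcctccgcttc

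The search covered these bases and the 50 that follow the start, a window of 300 bases, on both strands, and the same search in 32851 promoter windows gives the background. In Gfap the STAT word TTCNNNGAA was matched once, 2 bases before to 7 bases after the start, so that only its first letters stand in capitals on the Gfap line. The match with its surroundings, 29 bases in all, is shown on its own because it crosses the start.
Gfap start site: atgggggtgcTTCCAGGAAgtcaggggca
The STAT word was present in 8.30% of all windows. Vim held the TATA box word TATAAA from -32 to -27 relative to the start, a word present in 13.6% of windows. Nes held TGTTCT from -242 to -237, which is the reverse strand of AGAACA, a single arm of the glucocorticoid response element; that arm was present in 19.0% of windows. The full glucocorticoid response element, which is this arm and its reverse strand with 3 free bases between them, was found in 3 of the 32851 windows (0.00913%) and in none of the 3 genes. Neither the AP-1 word TGANTCA (7.81% of windows) nor the Sox word ACAAAG (18.7%) was found in these 3 windows. A match is a description of letters, and no binding was measured here. Bases outside these windows were not searched, and no link between the words and the array values was tested.

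The deposited values are log2 expression values from RMA, and every probe set has a median of 0 over the 18 arrays. A value of 0 is therefore the middle array for that probe set and carries no information on how strongly the gene is expressed, and levels cannot be compared between genes. For the same reason the labelled tissue could not be checked through the levels of its marker genes. The 3 Gfap probe sets varied more over the arrays than 95%, 99.6% and 99.95% of single-gene probe sets by interquartile range. The Vim probe sets ranked above 96.5%, 97.0% and 98.1%, and the Nes probe sets above 19.5%, 47.0% and 82.5%. Gfap and Vim were thus among the widely varying transcripts of the series, and Nes was not on 2 of its 3 probe sets.

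Gfap, the filament gene whose protein marks gliosis, was higher after either drug than after BSS at day 7. On 1440142_s_at the BSS arrays of day 7 read -0.06, -0.76 and 0.11, the DEX arrays 0.77, 0.41 and 0.35, and the TAA arrays 0.77, 2.11 and 0.011. All 3 DEX arrays lay above all 3 BSS arrays, whereas TAA replicate 3 fell inside the BSS range and TAA replicate 2 stood far above every other array. The SEs given here and below are from limma with a spread shared by the 6 groups. The group SDs on this probe set were unequal, from 0.23 (DEX day 7) to 1.06 (TAA day 7). The mean difference was 0.75 ± 0.40 (SE, n = 3 per group, 95% interval -0.09 to 1.59) for DEX and 1.20 ± 0.40 (0.36 to 2.04) for TAA, or 1.68-fold and 2.30-fold. Neither passed limma's moderated test after Benjamini-Hochberg adjustment over all 34945 probe sets, with an adjusted p of 1.0 in each case. In bulk retina, a change in the number of cells of a type and a change in RNA per cell cannot be told apart.

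At day 30 the DEX group had the lowest Gfap mean of the 6 groups on 1440142_s_at and 1426509_s_at, and on 1426508_at the TAA group did (-0.41, against -0.29 for DEX). On 1440142_s_at the BSS arrays read 0.43, -0.19 and -0.011, the DEX arrays -1.32, -1.59 and -0.93, and the TAA arrays -0.90, 0.13 and -0.99. The DEX arrays lay below all BSS arrays, and the TAA arrays were split, with replicates 1 and 3 low and replicate 2 within the BSS range. DEX was lower than BSS by a log2 difference of -1.36 ± 0.40 (95% interval -2.20 to -0.51), which is 2.56-fold, with an unadjusted p of 0.00337 and an adjusted p of 0.357 in limma. TAA differed from BSS by -0.66 ± 0.40 (-1.51 to 0.18), with an adjusted p of 0.769, and by -1.03 without TAA day 30 replicate 2 and -0.46 without replicate 3.

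The other Gfap probe sets also had their highest means in the drug groups of day 7 and their lowest in a drug group of day 30. On 1426509_s_at the day 7 values were -0.07, -0.42 and -0.35 for BSS, 0.50, 0.55 and 0.49 for DEX, and 0.63, 1.65 and 0.040 for TAA. At day 30 that probe set read 0.84, -0.12 and 0.07 for BSS, -0.70, -0.85 and -0.34 for DEX, and -0.040, 0.08 and -0.82 for TAA. Both drugs lay wholly above BSS at day 7, and DEX alone lay wholly below BSS at day 30. On 1426508_at the ranges were narrower: at day 7 -0.25 to -0.018 for BSS, 0.12 to 0.21 for DEX and 0.018 to 0.55 for TAA, and at day 30 -0.027 to 0.20 for BSS, -0.35 to -0.20 for DEX and -0.72 to 0.11 for TAA. The groups separated on this probe set exactly as on 1426509_s_at. Pearson's r between the Gfap probe sets over the 18 arrays lay between 0.80 and 0.93.

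Vim, whose product is the main filament protein of Müller glia, was also higher after both drugs at day 7, and TAA replicate 2 was again the highest array. On 1450641_at the day 7 values were -0.019, -0.35 and -0.015 for BSS, 0.51, 0.32 and 0.28 for DEX, and 0.40, 1.39 and 0.015 for TAA. Both drug groups lay wholly above BSS, for TAA replicate 3 by a narrow margin. The differences from BSS were 0.50 ± 0.29 (95% interval -0.10 to 1.10) for DEX and 0.73 ± 0.29 (0.13 to 1.33) for TAA, each with an adjusted p of 1.0 in limma. The other Vim probe sets put TAA above BSS by 0.84 ± 0.32 (1438118_x_at) and 0.85 ± 0.36 (1456292_a_at), and DEX above BSS by 0.26 ± 0.32 and 0.30 ± 0.36.

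At day 30 the Vim arrays of the 3 groups overlapped on every probe set. On 1450641_at the BSS arrays read 0.08, -0.29 and -0.031, the DEX arrays 0.09, -0.05 and -0.46, and the TAA arrays -0.29, -0.76 and 0.36. DEX minus BSS was -0.06 ± 0.29 (95% interval -0.66 to 0.54) and TAA minus BSS was -0.15 ± 0.29 (-0.75 to 0.45). The 3 probe sets did not share a sign: DEX minus BSS was 0.12 and 0.27 on 1438118_x_at and 1456292_a_at, and TAA minus BSS was 0.04 and -0.11. TAA replicate 2 was the lowest of the 9 day 30 arrays on all 3 Vim probe sets, and TAA replicate 3 was the highest on 1438118_x_at (0.64) and 1450641_at, whereas DEX replicate 2 was the highest on 1456292_a_at (0.64).

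The extremes of Vim coincided with arrays that also stood out otherwise. On TAA day 30 replicate 3, where 1450641_at read 0.36, the 12 measured lens genes averaged 3.97, against -1.37 to 2.00 on the other 17 arrays; vimentin is also a lens protein. On TAA day 30 replicate 2, where 1450641_at read -0.76, the Actb 3' minus 5' control probe sets differed by -0.46, against -0.17 to 0.14 elsewhere, and the SD over all probe sets was 0.350, the widest of the series. TAA day 7 replicate 2 had the next widest SD, 0.338, with the SD of the other arrays between 0.147 and 0.296. The part of lens RNA, RNA quality or single arrays in the Vim values was not tested.

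Nes, the progenitor filament gene, varied least. On 1449022_at the day 7 values were -0.017, -0.19 and 0.012 for BSS, 0.18, -0.026 and 0.17 for DEX, and 0.0010, -0.38 and -0.19 for TAA. At day 30 they were -0.0010, 0.16 and 0.25 for BSS, -0.31, -0.39 and 0.14 for DEX, and 0.021, 0.09 and -0.11 for TAA. Every pair of groups at the same day overlapped, and within DEX at day 30 replicates 1 and 2 were low while replicate 3 was not. DEX minus BSS was 0.17 ± 0.14 (95% interval -0.11 to 0.46) at day 7 and -0.32 ± 0.14 (-0.61 to -0.04) at day 30, with adjusted p-values of 1.0 and 0.393 in limma. TAA minus BSS was -0.13 ± 0.14 (-0.41 to 0.16) and -0.13 ± 0.14 (-0.42 to 0.15). On 1418289_at and 1453997_a_at all 18 arrays lay between -0.41 and 0.39, and the drug difference from BSS farthest from 0 was -0.18. The Nes probe sets followed each other less closely than those of the other genes, with Pearson's r of 0.42 to 0.63 over the 18 arrays.

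**Figure D1:**
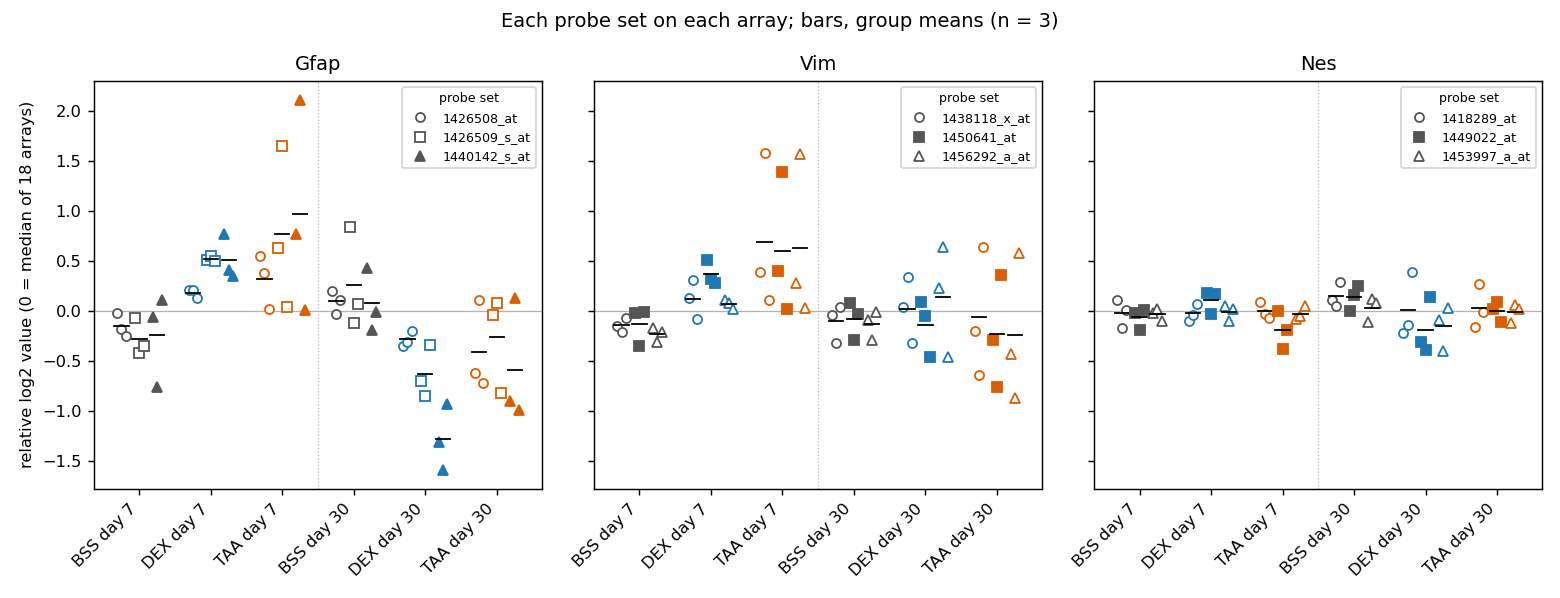
Relative log2 value (0 is the median of the 18 arrays) of each Gfap, Vim and Nes probe set on each array, by group; symbols tell the probe sets apart, filled symbols mark the probe set that stands for the gene, and bars are means of 3 arrays. The 3 DEX arrays of day 30 read -1.59 to -0.93 for Gfap on 1440142_s_at, below all BSS arrays, while TAA day 7 replicate 2 holds the highest Gfap (2.11) and Vim (1.39) values, and Nes stays within -0.41 to 0.39.

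At day 7 a larger share of the member probe sets than of all probe sets was separated from BSS. The 9 probe sets stand for 3 genes, and those of the same gene follow each other, so they are not independent counts. The genes were chosen with earlier results of these data known, and Gfap and Vim vary widely over the arrays. The shares below are therefore a description and not a test. After DEX, 5 of 9 member probe sets lay above BSS with no overlap of the arrays (3 of Gfap, 2 of Vim), against 7.35% of all probe sets tested. After TAA, 5 of 9 did so (2 of Gfap, 3 of Vim), against 4.48%. At day 30, 3 of 9 lay wholly below BSS after DEX, all of them Gfap, against 9.28%, and 0 of 9 after TAA, against 7.11%. The calls by adjusted p gave little to read these against. After DEX limma called 0 of 34945 probe sets (0%) at either day, with 1193 (3.41%) and 4110 (11.8%) at an unadjusted p under 0.05. After TAA it called 1 (0.00286%) at day 7 and 0 (0%) at day 30, with 1340 (3.83%) and 2458 (7.03%) at an unadjusted p under 0.05. No member was among the calls, and 1 member probe set after DEX at day 7, 6 after TAA at day 7, 4 after DEX at day 30 and 1 after TAA at day 30 had an unadjusted p under 0.05.

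The TAA difference at day 7 leaned on 1 array. Without TAA day 7 replicate 2 the Gfap difference was 0.63 and the Vim difference 0.33, and without replicate 3 they were 1.68 and 1.02. On that replicate 2 array the 21 measured reactive gliosis genes averaged 1.53, against -0.66 to 0.57 on the other 17 arrays. The Gfap difference after DEX at day 7 ran from 0.49 (without BSS day 7 replicate 2) to 0.92, and at day 30 from -1.53 to -1.18, when each array was left out in turn.

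**Figure D2:**
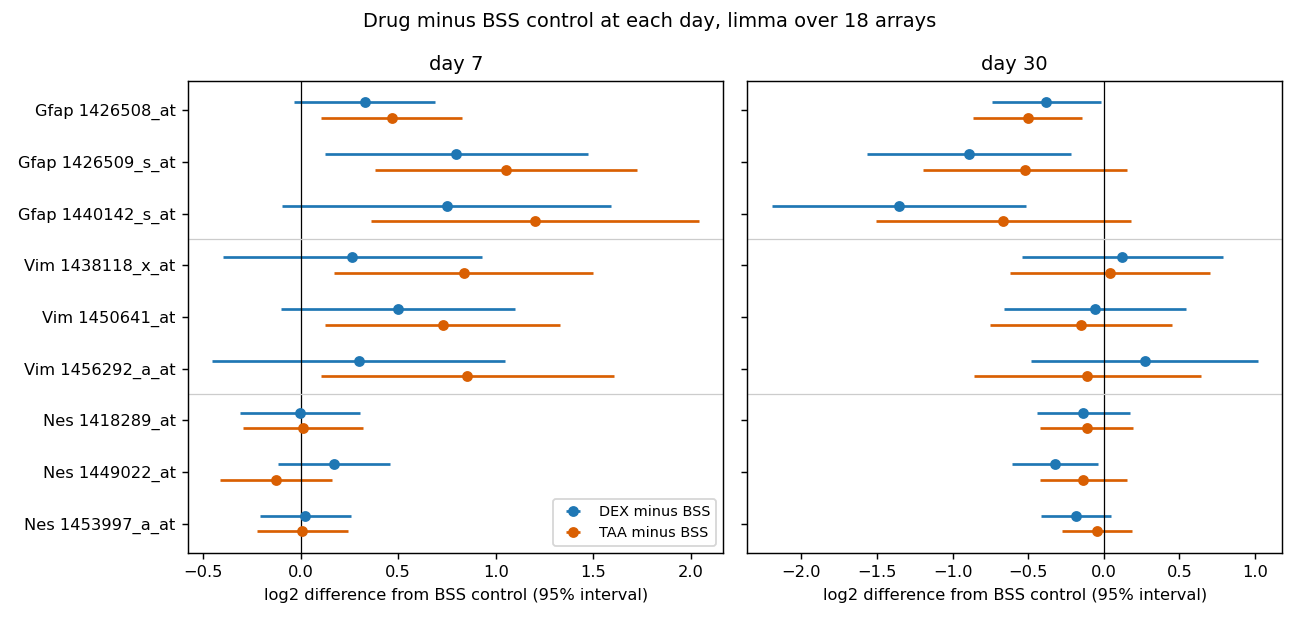
Log2 difference of each drug from BSS (points) with its 95% interval (bars) from limma over 18 arrays, for the 9 probe sets at day 7 and day 30. For 1440142_s_at of Gfap the DEX point moves from 0.75 at day 7 to -1.36 at day 30 and the TAA point from 1.20 to -0.66, the Vim points of day 30 lie between -0.15 and 0.27, and the Nes points stay between -0.32 and 0.17.

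In DEX-injected eyes Gfap was lower at day 30 than at day 7, and this was the difference of the 3 genes with the smallest adjusted p. From day 7 to day 30 Gfap fell by 1.79 ± 0.40 on the log2 scale on 1440142_s_at (95% interval -2.63 to -0.95), which is 3.46-fold, and this passed limma's test with an adjusted p of 0.0348. It was the only member probe set called in any comparison, 1 of 9, in a contrast that called 700 of 34945 probe sets (2%), 528 of them lower (1.51%). The call is close to the threshold: it was lost in 5 of the 6 fits that leave out 1 DEX array, with differences of -1.96 to -1.63 and adjusted p-values of 0.0181 to 0.180. It held only in the fit without DEX day 30 replicate 3, which called 2590 of the 34945 probe sets. With DEX day 7 replicate 1 left out the adjusted p was 0.180, and with replicate 2 or 3 of day 7, or replicate 1 or 2 of day 30, it was 0.106, 0.0563, 0.112 and 0.130.

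The other Gfap probe sets were also lower at day 30 than at day 7 in DEX eyes, by log2 differences of -1.15 ± 0.32 (1426509_s_at, adjusted p 0.0670 in limma) and -0.46 ± 0.17 (1426508_at, adjusted p 0.157), and on each of the 3 the DEX arrays of day 30 lay wholly below those of day 7. Vim on 1450641_at differed by -0.51 ± 0.29 (adjusted p 0.354) with no overlap, and on the other Vim probe sets by -0.10 and 0.07 with overlap. Together 4 of 9 member probe sets were lower with no overlap, against 17.1% of all probe sets. Nes on 1449022_at differed by -0.30 ± 0.14 (adjusted p 0.248).

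In TAA eyes the Gfap difference between the days was of like size and did not pass. On 1440142_s_at the difference was -1.55 ± 0.40 (95% interval -2.39 to -0.71), with an adjusted p of 0.197 in limma, and the 2 days overlapped because replicate 3 was low at day 7 and replicate 2 high at day 30. Vim differed by -0.83 ± 0.29 (-1.43 to -0.23; adjusted p 0.295). Limma called 0 of 34945 probe sets (0%) in this contrast, with 4338 (12.4%) at an unadjusted p under 0.05, among them 6 of the 9 members, all 3 of Gfap and all 3 of Vim. The days overlapped on all 9 probe sets, against 12.8% of all probe sets with no overlap. Without TAA day 7 replicate 2 the Gfap difference was -0.98 and the Vim difference -0.44.

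In BSS eyes the 3 genes did not separate between the days. Gfap was 0.31 ± 0.40 higher at day 30 (95% interval -0.53 to 1.15), Vim 0.05 ± 0.29 (-0.55 to 0.65) and Nes 0.20 ± 0.14 (-0.09 to 0.48), with arrays of the days overlapping on all 9 probe sets, against 21.6% of all probe sets with no overlap. Limma called 5 of 34945 probe sets (0.0143%) in this contrast, with 2481 (7.10%) at an unadjusted p under 0.05 and no member among them. The sign for Gfap was opposite to that in the drug eyes, but without BSS day 7 replicate 2 the Gfap difference was 0.051.

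The change of the drug effect between the days was tested directly, as the difference at day 30 minus the difference at day 7. For DEX it was -2.10 ± 0.56 on Gfap (1440142_s_at; 95% interval -3.29 to -0.91), with an unadjusted p of 0.00164 and an adjusted p of 0.458 in limma. For TAA it was -1.86 ± 0.56 (-3.05 to -0.68), with an adjusted p of 0.772. The BSS arrays are shared by each drug's effect at a day, so the values for the drugs are not independent of each other. Limma called 0 probe sets (0%) for either drug, with 2953 (8.45%) and 2038 (5.83%) at an unadjusted p under 0.05; all 3 Gfap probe sets were among both.
All 3 Gfap probe sets were among the 397 of 34945 (1.14%) that lay wholly above BSS at day 7 and wholly below it at day 30 after DEX. After TAA this pattern was found in 116 probe sets (0.332%) and in 0 of the 9. The 3 Gfap probe sets read the same gene on the same arrays, so they are not independent of each other. Gfap was also chosen with earlier results of these data known, so the share is a description and not a test. For Vim the changes were -0.56 ± 0.40 for DEX and -0.88 ± 0.40 for TAA (-0.48 without TAA day 7 replicate 2), and for Nes -0.49 ± 0.19 and -0.0093 ± 0.19, with a lowest adjusted p of 0.536 among these in limma, for Nes and DEX.

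The drugs were also compared with each other at each day, 1 comparison a day for each gene, with p-values adjusted over all probe sets. At day 7 DEX minus TAA was -0.45 ± 0.40 for Gfap (95% interval -1.29 to 0.39), -0.23 ± 0.29 for Vim (-0.83 to 0.37) and 0.30 ± 0.14 for Nes (0.012 to 0.58), with adjusted p-values of 0.918, 0.949 and 0.792 in limma. At day 30 it was -0.69 ± 0.40 for Gfap (-1.53 to 0.15), 0.09 ± 0.29 for Vim (-0.51 to 0.69) and -0.19 ± 0.14 for Nes (-0.47 to 0.10), with adjusted p-values of 0.401, 0.913 and 0.514. The arrays of the drugs overlapped on all 9 probe sets at each day, against 12.6% and 14.1% of all probe sets with no overlap at day 7 and day 30. Limma called 0 of 34945 probe sets (0%) at either day, with 2195 (6.28%) and 5892 (16.9%) at an unadjusted p under 0.05. The intervals for Gfap reach past a 2-fold difference, so these arrays do not show that the drugs act alike. Without TAA day 7 replicate 2 the sign at day 7 turned, to 0.12 for Gfap and 0.16 for Vim, and on 1426508_at the Gfap difference at day 30 was 0.12 ± 0.17, opposite to the other Gfap probe sets. Leaving out 1 array moved the Gfap difference at day 30 between -0.89 and -0.33, the latter without TAA day 30 replicate 2.

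Ordered by group mean, Gfap on 1440142_s_at ran from TAA day 7 (0.96 ± 1.06, SD, n = 3) through DEX day 7 (0.51 ± 0.23), BSS day 30 (0.08 ± 0.32), BSS day 7 (-0.24 ± 0.46) and TAA day 30 (-0.59 ± 0.63) to DEX day 30 (-1.28 ± 0.33). Every neighbouring pair in this order overlapped. Vim on 1450641_at ran from TAA day 7 (0.60 ± 0.71) and DEX day 7 (0.37 ± 0.13) to BSS day 30 (-0.08 ± 0.19), BSS day 7 (-0.13 ± 0.19), DEX day 30 (-0.14 ± 0.28) and TAA day 30 (-0.23 ± 0.56). Its only break between neighbours was between DEX day 7 and BSS day 30. Nes on 1449022_at ran from BSS day 30 (0.13 ± 0.13) and DEX day 7 (0.11 ± 0.12) down to DEX day 30 (-0.19 ± 0.29) and TAA day 7 (-0.19 ± 0.19), with every neighbouring pair overlapping. The 2 genes with high values at day 7 were widest in the TAA groups, where the SD of Gfap was 1.06 and 0.63 against 0.23 and 0.33 after DEX.

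Gfap and Vim were compared over the arrays on the probe sets that stand for them. Over the 18 arrays Pearson's r was 0.64 (permutation p 0.00564, adjusted over the 3 pairs of genes 0.0169) and Spearman's rank coefficient 0.55 (permutation p 0.0196, adjusted 0.0588). Within the 9 arrays of day 7 r was 0.99, and within the 9 arrays of day 30 it was -0.28. Without the 2 arrays farthest from the Gfap median, TAA day 7 replicate 2 and DEX day 30 replicate 2, r was 0.40 (permutation p 0.122, adjusted 0.184). Without TAA day 7 replicate 2 alone r was 0.37, so the size of the pooled r leaned on that array. The permutations moved values freely across the 6 groups, so their p-values do not tell shared group differences from likeness between arrays within groups. With group means taken off r was 0.39, which was not tested. The 9 pairs of a Gfap with a Vim probe set had r from 0.17 to 0.64, and the pair tested here is the highest of them. Gfap and Nes gave r = 0.16 (permutation p 0.542, adjusted 0.542) and a Spearman coefficient of 0.25 (p 0.319, adjusted 0.423), and without TAA day 7 replicate 2 r was 0.61. Within day 7 r of Gfap with Nes was -0.25, and within day 30 it was 0.72. Vim and Nes gave r = -0.35 (permutation p 0.160, adjusted 0.240) and a Spearman coefficient of -0.20 (p 0.423, adjusted 0.423), and without TAA day 7 replicate 2 r was -0.048. Within day 7 r of Vim with Nes was -0.29, and within day 30 it was -0.45. The differences in r between the days were not tested.

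**Figure D3:**
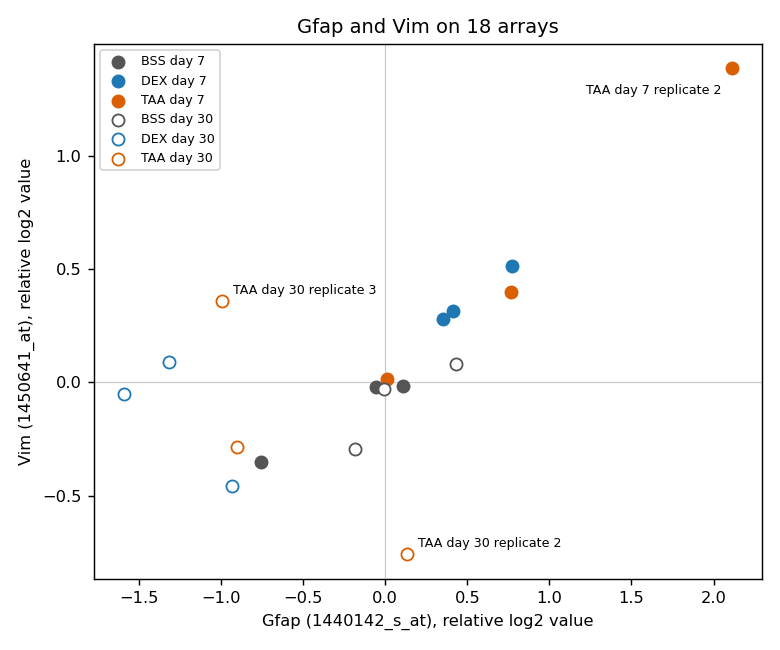
Vim (1450641_at) against Gfap (1440142_s_at) on the 18 arrays, each axis a relative log2 value; filled points are day 7 and open points day 30, coloured by treatment. The 9 day 7 arrays lie along 1 line (r = 0.99), and at day 30 the 3 DEX arrays and TAA replicates 1 and 3 lie at Gfap values of -1.59 to -0.90 with Vim between -0.46 and 0.36.

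The genes whose values over the 18 arrays were most like Gfap, among 16313 named genes with 1 probe set each, were Ccn1, a matricellular protein gene (Pearson's r 0.91), Adgrg6, an adhesion receptor gene (0.91), Aldh1l1, a folate enzyme gene used as an astrocyte marker (0.90), Capns1, the small subunit of calpain proteases (0.89), and Arhgap42, a GTPase-activating protein gene (0.89). Aldh1l1 read 0.93, 1.27 and 0.24 on the TAA arrays of day 7 and -0.64, -0.65 and -0.64 on the DEX arrays of day 30. Its difference in DEX eyes between the days was -0.90 ± 0.23 (adjusted p 0.0504 in limma), and its second probe set, 1424401_at, differed by -0.07 ± 0.14. Most like Vim were Lin7a, a junction scaffold gene (0.88), Plxdc2 (0.85), Dpyd, a pyrimidine-degrading enzyme gene (0.85), Zcchc24 (0.85) and Mtap, a gene of methionine salvage (0.85). Most like Nes were Afm (0.90), Lst1 (0.90), Agtr1b, an angiotensin receptor gene (0.88), Dlx3, a homeobox gene (0.87), and Plekho2 (0.87). Without TAA day 7 replicate 2 these coefficients were 0.82 to 0.91 for Gfap, 0.67 to 0.81 for Vim and 0.84 to 0.89 for Nes. They were picked as the highest, so they carry no test.

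The other intermediate filament genes did not share the Gfap pattern as a group. Of 18 measured, which include the neurofilaments, lamins, keratins and lens beaded filament genes, 6 were above BSS after DEX at day 7 and 10 after TAA, with medians of -0.03 and 0.03, beside 48.4% and 49.8% of all 18193 genes above. At day 30 the shares of all genes above BSS were 42.1% after DEX and 44.2% after TAA. In DEX eyes 46.3% of all genes were higher at day 30 than at day 7. Counts of the lists below are read beside these shares. Each list gene is read on its most variable probe set, whereas shares of probe sets called or without overlap cover all probe sets, an unlike set. From day 7 to day 30 in DEX eyes 1 of the 18 fell, the peripherin gene Prph, a neuronal filament gene, by 0.61 ± 0.15 (adjusted p 0.0430 in limma), and 0 rose. The other Prph probe sets gave -0.28, 0.12 and -0.06 in that contrast, none called. Nefl, the light neurofilament gene of ganglion cell axons, was lower after TAA than after BSS at day 30 by a difference of -0.65 ± 0.17 with no overlap (adjusted p 0.671).

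Among 10 measured linkers and chaperones of filaments, 0 passed in any drug comparison or between the days. Plec, which encodes the linker plectin, was 0.65 ± 0.22 above BSS after DEX at day 7 with no overlap (adjusted p 1.0 in limma), and 0.43 without BSS day 7 replicate 3. Hspb1, a small heat shock protein gene that is also on the gliosis list, was below BSS by -0.76 ± 0.27 after DEX at day 30 with no overlap (adjusted p 0.362), and by -0.43 without BSS day 30 replicate 3. Of 10 measured kinases and phosphatases that act on filament proteins 0 passed in these comparisons, and after DEX 7 of 10 were above BSS at day 7 (median 0.19) and 7 of 10 below it at day 30 (median -0.14), not all of them the same genes.

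Of 27 measured genes that feed into Gfap transcription (cytokine receptors, STAT, BMP, Notch and nuclear factor I members), 2 fell and 0 rose between the days in DEX eyes, where 8 were above and 19 below 0 with a median of -0.20, against a median of -0.02 and 1.51% of probe sets called lower over all features. Stat3, the transcription factor downstream of gp130, fell by 0.87 ± 0.21 (adjusted p 0.0410 in limma). Its DEX arrays read 0.75, 0.33 and 0.35 at day 7 and -0.45, -0.41 and -0.31 at day 30, and BSS ran from -0.12 to 0.13 at day 7 and from -0.53 to 0.11 at day 30. Stat3 was thus high at day 7 in the DEX arrays, whose day 30 values lay within the BSS range of that day. A second Stat3 probe set, 1460700_at, differed by -0.80 ± 0.22 (adjusted p 0.0636), while 1459961_a_at and 1424272_at differed by -0.09 and 0.27.

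Nfia, a nuclear factor I gene of glial development, fell by 1.0 ± 0.18 between the days in DEX eyes (1438236_at, adjusted p 0.0228 in limma). Its DEX arrays read 0.64, 0.94 and 0.42 at day 7 and -0.33, -0.38 and -0.29 at day 30, where BSS read 0.30, 0.37 and 0.06. The other 5 Nfia probe sets gave differences of -0.20 to 0.23 in this contrast and none was called, so the fall belongs to 1 of 6 probe sets. Each of these calls was lost on leaving out single DEX arrays, in 5 of 6 fits for Stat3 and Prph and in 4 of 6 for Nfia.

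Of 21 measured reactive gliosis genes other than the 3 filament genes, 18 were above BSS after DEX at day 7 with a median of 0.67, and 14 lay above with no overlap of the arrays, while 18 were above BSS after TAA with a median of 0.89 and 8 lay above without overlap. Over all features 48.4% of genes were above after DEX and 49.8% after TAA. Of all probe sets 7.35% and 4.48% lay above without overlap. That share is over an unlike set, since each list gene is read only on its most variable probe set. The list was also chosen with earlier results of these data known. None of the 21 passed. At day 30, 6 were above BSS after DEX with a median of -0.09 and 11 after TAA with a median of 0.0091. Between the days in DEX eyes 19 of 21 were lower, with a median of -0.68, and 1 fell, Stat3, which is on this list too. Serpina3n, a protease inhibitor gene made by reactive glia, read 1.87, 3.30 and 0.40 on the TAA arrays of day 7 and -2.35, -2.20 and -0.77 on the DEX arrays of day 30, extremes on the same groups as Gfap. At day 30 the DEX difference from BSS was -1.69 ± 0.77 (adjusted p 0.413 in limma), with overlap, since BSS replicate 2 read -1.86; it was -2.57 without that array and -1.05 without BSS replicate 3.
Gfap was thus below BSS on every DEX array of day 30 while the gliosis list as a whole was not: its array means were -0.66, -0.50 and 0.29 after DEX and -0.06, -0.65 and 0.34 after BSS.

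Markers of other retinal cells are given beside the filament genes by their list means per array. Of 17 measured Müller glia genes 12 were above BSS after DEX at day 7 and 5 at day 30, with medians of 0.11 and -0.12. Between the days in DEX eyes 13 were lower with a median of -0.26, and 0 passed. Aqp4 went the other way in DEX eyes at day 30, 0.59 ± 0.27 above BSS (adjusted p 0.408 in limma). It was 0.83 ± 0.27 above day 7 (adjusted p 0.106), each time with no overlap. Over the alternatives to the fit its difference from BSS ran from 0.065 to 0.69. The 9 measured astrocyte genes ran, as array means, from 0.06 to 0.19 after DEX at day 7 and from -0.24 to -0.10 at day 30, with BSS at -0.16 to 0.24 and -0.22 to -0.012. Over the 18 arrays the Müller glia list mean ran from -0.13 to 0.39, with its highest value on TAA day 7 replicate 2. After DEX the Müller glia means were 0.074 to 0.120 at day 7, wholly above BSS (-0.114 to -0.0089). At day 30 they were -0.092 to 0.024 after DEX, wholly below DEX at day 7 but overlapping BSS (-0.066 to 0.078). All 11 measured microglia genes were above BSS after DEX at day 7 (median 0.48) and all 11 below it at day 30 (median -0.46), and 1, Tmem119, fell between the days by 0.53 ± 0.12 (adjusted p 0.0387 in limma), beside 1.51% of all probe sets. Tmem119 no longer passed in 4 of 6 fits without single DEX arrays, nor with quantile normalization or only the compared arrays (highest adjusted p 0.0829). The microglia array means were 0.17 to 0.57 after DEX at day 7 and -0.65 to 0.15 at day 30, with BSS at -0.18 to 0.18 and -0.61 to 0.51.

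Of the remaining lists, vascular endothelium (12 genes), pericytes and smooth muscle (10), pigment epithelium (14), rods (10), ganglion cells (11) and lens (12) had 0 calls in these comparisons. Of 10 fibroblast and matrix genes 1 fell in DEX eyes between the days, Sparc, a matrix glycoprotein gene also made by glia, by 0.87 ± 0.17 (adjusted p 0.0265 in limma). Sparc no longer passed in 4 of 6 fits without single DEX arrays, nor with only the compared arrays or with the mean of all or of the plain _at probe sets (-0.46; highest adjusted p 0.0626). The endothelial array means after DEX were 0.086 to 0.153 at day 7, above BSS (-0.0088 to 0.0078), and -0.131 to -0.113 at day 30, below BSS (-0.097 to 0.088), so that they lay on the same sides of BSS as Gfap. The pericyte and smooth muscle means after DEX also lay above BSS at day 7 (0.123 to 0.181 against -0.050 to 0.099). At day 30 they overlapped BSS (-0.200 to -0.046 against -0.086 to 0.081). The rod array means of day 7 lay below BSS (-0.023 to 0.021) after DEX (-0.110 to -0.024), by a narrow margin, and after TAA (-0.120 to -0.062). The ganglion cell array means of day 30 lay below BSS (-0.154 to 0.080) after TAA (-0.486 to -0.179). Of the 14 pigment epithelium genes 13 were below BSS at day 7 after DEX (median -0.54) and 11 after TAA (median -0.24). All 12 lens genes were below BSS after DEX at day 30, with a median of -1.35, on array means of -1.33 to 0.51 after DEX and -0.12 to 2.00 after BSS. The part of Müller glia, microglia, endothelial, pericyte, rod, ganglion cell, pigment epithelium, matrix or lens RNA in the filament values was not tested.

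**Figure D4:**
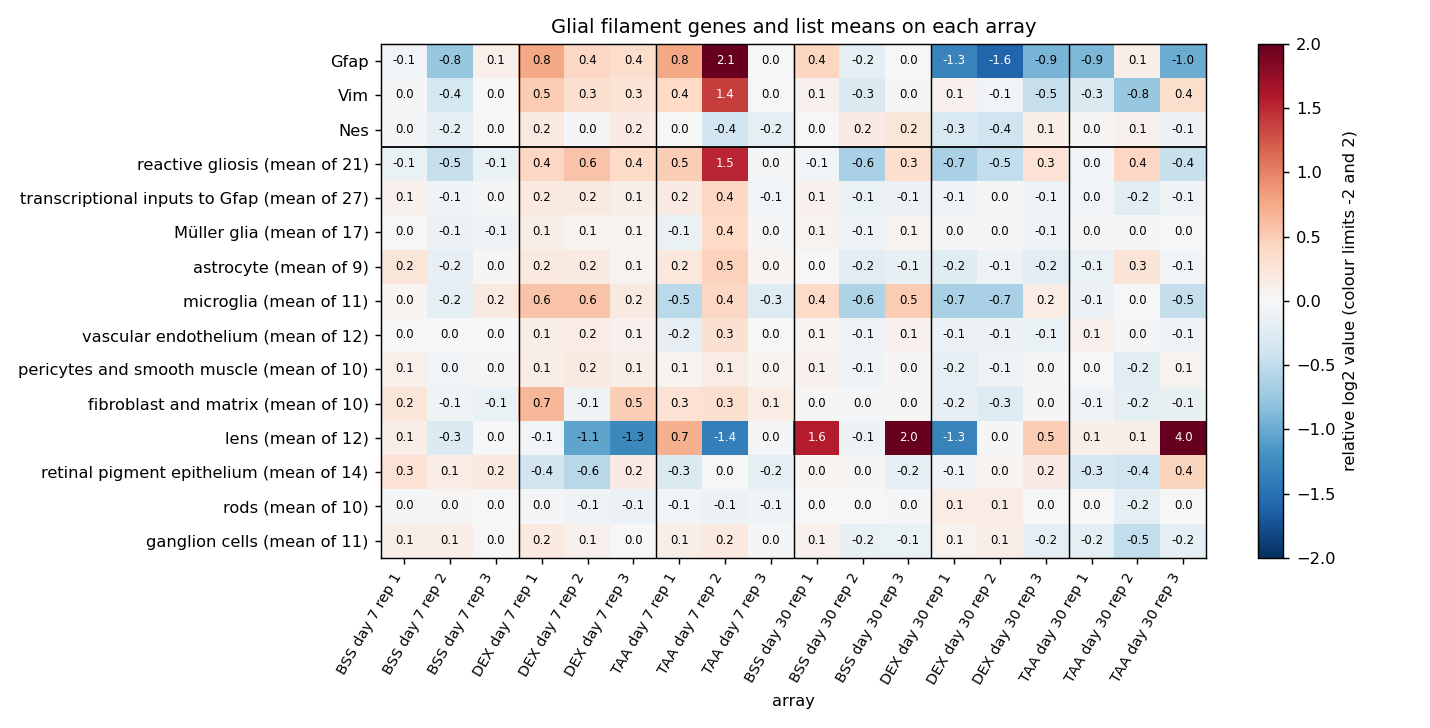
Relative log2 values of Gfap, Vim and Nes (top 3 rows, 1 probe set each) and mean relative log2 value of each marker list (other rows, number of genes in brackets) on the 18 arrays, with colour limits at -2 and 2. Gfap is low on the 3 DEX day 30 arrays (-1.59 to -0.93), where the Müller glia list mean lies at -0.09 to 0.02, and TAA day 7 replicate 2 and TAA day 30 replicate 3 stand out for reactive gliosis genes (1.53) and lens genes (3.97).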

How the data were processed

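RNA from 18 mouse retina samples was hybridised to 18 Affymetrix arrays, after 2-cycle labelling per the labels' protocols. The deposited values are log2 values from RMA per the submitters' processing notes, with no version stated; the log base is that of RMA and was not read from the values. Each of the 45101 deposited rows has a median within 1e-06 of 0 over the 18 arrays, a centring whose step is not given in the sources used here, and so signal over background cannot be given. The platform annotation names 1 gene for 34945 probe sets, several for 932 and none for 9160, and 64 are controls.

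limma 3.58.1 in R 4.3.3 fitted 1 mean per group over all 18 arrays (lmFit, eBayes; 12 residual and 5.30 prior degrees of freedom), with Benjamini-Hochberg adjustment over 34945 probe sets and a threshold of 0.05. The fit was tested on simulated data with independent normal noise, each probe set having the same SD in every group. That test therefore does not cover unequal group spreads or outlying arrays, such as those seen here. Exact permutation of 3 arrays against 3 cannot go below p = 0.10, so none is given for single values. Correlations between the 3 genes used 100000 permutations (scipy 1.17.1). The labels name no batch and no dose. The number of arrays limits the precision. Limma's p-values set a difference against the spread between samples within groups, pooled over all groups and moderated. The design text calls the samples of a group biological replicates.

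Of 203 listed genes in 15 lists 189 were measured, each by its probe set of largest interquartile range. The 3 genes, the lists and the promoter motifs were chosen with earlier results of these data known. Named were all probe sets of Gfap, Vim and Nes, list members that passed or were among the 3 of smallest p, and the 5 genes most like each member. Samples with the same replicate number were checked for shared deviations: every pair had a correlation over 0.1 for DEX against BSS at day 30 only (0.111, 0.123 and 0.282). This likeness was read from the values, and no label states a pairing. Alternatives covered normalization, centring, array weights, features tested, the choice of probe set, the replicate number as a block and leaving out arrays. Promoters came from RefSeq on GRCm38.p6, where all 3 genes matched.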

Additional observations from a re-analysis of the deposited data

Results flagged for a closer look

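The change of the DEX effect on Gfap from day 7 to day 30, -2.10 ± 0.56 on the log2 scale, stood out because all 3 DEX arrays lay above all 3 BSS arrays at day 7 and below all 3 at day 30. The test of the difference itself gave an adjusted p of 0.458 in limma, and the cause was not tested.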

How the results depend on the processing

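Over the alternatives to the fit the sign of the Gfap difference from BSS held for each drug and day, between 0.33 and 0.88 for DEX at day 7, 0.47 and 1.21 for TAA at day 7, -1.43 and -0.38 for DEX at day 30, and -0.95 and -0.50 for TAA at day 30. The call for Gfap between the days in DEX eyes was lost with only the compared arrays (-1.79, adjusted p 0.0596) and on the plain _at probe set (-0.46, adjusted p 0.153), and held in the other settings that keep all arrays. With array weights new calls appeared for DEX against BSS at day 30 (Gfap -1.42, Nes -0.44), for Nes in DEX eyes between the days (-0.40) and for the change of the DEX effect (Gfap -2.29, Nes -0.63). In the same order, these contrasts called 5200, 7323 and 3311 of all 34945 probe sets with array weights. The main fit called 0, 700 and 0, so the member calls came with a general rise in calls. With only the compared arrays the change of the DEX effect was called for Gfap (-2.10, adjusted p 0.0495 in limma), among 12 calls over all probe sets. Signs turned for Vim with quantile normalization (DEX against TAA 0.014 at day 7 and -0.036 at day 30). With array weights they turned for Vim (0.076 for DEX and 0.13 for TAA against BSS at day 30; 0.26 and -0.058 for DEX against TAA at day 7 and day 30), for Gfap (0.35, DEX against TAA at day 7) and for Krt8 (0.067, TAA at day 7). With the mean of all probe sets they turned for Vim (0.11) and Nfia (0.0049) after DEX at day 30, Sync after TAA at day 7 (0.059) and Macf1 in TAA eyes between the days (-0.021). On plain _at probe sets they turned for Gfap (0.12, DEX against TAA at day 30), Sync (0.20, TAA at day 7) and Aldh1l1 (0.036, TAA between the days). The causes were not tested.

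Leaving out 1 array gave, for results whose sign turned, -0.17 to 0.10 (Vim, DEX at day 30), -0.44 to 0.12 (Vim, TAA at day 30), -0.93 to 0.12 (Gfap) and -0.52 to 0.16 (Vim) for DEX against TAA at day 7, -0.18 to 0.38 (Vim, DEX against TAA at day 30), -0.064 to 0.15 (Vim, BSS between the days) and -0.10 to 0.086 (Nes, change of the TAA effect). For Gja1 after DEX at day 30 it gave -0.080 to 1.18 and for Krt8 after TAA at day 7 -0.21 to 0.0035. Nes ran from -0.49 to -0.22 for DEX against BSS at day 30 and from -0.46 to -0.19 in DEX eyes between the days, called without DEX day 30 replicate 3 in each. Without that array 1856 and 2590 of all 34945 probe sets were called in these contrasts, against 0 and 700 with it. Gfap between the days in DEX eyes ran from -1.96 to -1.63, and r of Gfap with Nes from -0.050 to 0.61.

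Counts of calls over all probe sets with array weights were 55 and 83 (DEX and TAA against BSS at day 7), 5200 and 1 (day 30), 1172 and 4356 (DEX against TAA at day 7 and day 30), 658, 7323 and 104 (BSS, DEX and TAA between the days), and 3311 and 19 (changes of effect). With quantile normalization they were 2 and 3 for DEX and TAA against BSS at day 7, 2 for DEX against TAA at day 7, 57 for BSS and 2 for TAA between the days. With only the compared arrays they were 2 and 0 at day 7, 2 for BSS and 1 for DEX between the days, and 12 for the change of the DEX effect. The upper interquartile range filter gave 2 for TAA at day 7, 1 for DEX against TAA at day 7 and 1 for TAA between the days, 1 probe set per gene gave 1 for DEX against TAA at day 7, and robust moderation gave 0 for TAA at day 7 and 1 for TAA between the days. Leaving out arrays gave 0 to 1 (DEX at day 7), 0 to 21 (TAA at day 7), 0 to 1856 (DEX at day 30), 0 to 7 and 0 to 2798 (DEX against TAA at day 7 and day 30), 0 to 4 (BSS), 2 to 2590 (DEX) and 0 to 35 (TAA) between the days, and 0 to 11 and 0 to 3 for the changes of effect.

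With the replicate number as a block, counts were 0 for TAA at day 7, 1 for TAA at day 30 and 7 for TAA between the days, and no call on Gfap, Vim or Nes changed. Of 18 arrays 9 correlated best with an array of their own number in another group. The median correlation between groups was 0.039 for the same number and -0.018 for other numbers. For DEX against BSS at day 30 Gfap with the block was -1.36 (adjusted p 0.289).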
